A study of Mus musculus with 16 samples.

Results

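Gene expression in the descending thoracic aorta (the stretch of the vessel within the chest) of control mice was compared between the inbred mouse strains C57BL/6J and 129S6/SvEvTac (129S6 below). The 8 libraries compared were all those given as control, 4 of C57BL/6J and 4 of 129S6, out of 16 in the series. The other 8 came from mice of these strains made hypertensive with angiotensin II (AngII), a vasoconstrictor peptide. Every library was made from total RNA of the whole crushed vessel. Genotype, treatment and tissue were given for each group. Sex, age, the number of animals, what the controls received and the AngII dose were not given in the sources used here. No label says that each library is a different animal. The p-values therefore measure only the spread between these libraries, which may be technical.

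Inbred strains are each nearly homozygous at every position of the genome and differ from one another at many, including changes in copy number, deletions and retrotransposon insertions. Such variants can act on a nearby gene (in cis) or on distant ones, and both kinds are read out as a difference in expression between strains. The wall of the thoracic aorta is built from smooth muscle cells and elastic sheets, lined by endothelium and wrapped in an adventitia of fibroblasts, with fat around it. The reference genome of the mouse is that of C57BL/6J, so reads from 129S6 were aligned to the sequence of another strain.

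Between 42116120 and 57966276 counts were assigned to genes in each control library, with no separation of the strains by depth. The table lists 21896 protein-coding genes, and 14468 of them passed the filter on low counts. Smooth muscle contractile genes, the defining markers of the labelled tissue, were high in every control library: the 26 members together made up 71846 to 81112 CPM (counts scaled to the TMM-normalised library total) in the 8 libraries. In a bulk sample, fewer cells of a type and less RNA per cell cannot be told apart.

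The strains differed in the expression of 1442 of the 14468 protein-coding genes tested (9.97%), 815 of them higher in C57BL/6J (5.63%) and 627 higher in 129S6 (4.33%). A gene was called at a Benjamini-Hochberg adjusted p below 0.05 in edgeR's quasi-likelihood test, adjusted over every gene tested. The differences were mostly small, with a median absolute log2 fold change of 0.86 among called genes, while the median over all protein-coding genes was 0.00. A difference of at least 2-fold was found in 627 called genes (4.33% of those tested), 298 higher in C57BL/6J and 329 higher in 129S6. At least 8-fold differences were found in 188 genes, 44 of which reached a mean of 5 CPM in the higher strain. In 1382 of the called genes no library of one strain reached the range of the other, against 3235 of all genes tested (22.4%).

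Log2 fold changes below are C57BL/6J minus 129S6, and adjusted p-values are from that test. The standard error given with a log2 fold change is its absolute value divided by the square root of the test's F statistic. For genes with almost no counts in a strain, this error depends on the prior count added in the fit, as does the fold change. Positions are those of GENCODE M21 on GRCm38. Leaving out 1 control library at a time lowered the count of called genes to between 1061 and 1161. The AngII libraries entered the fit as groups of their own and shared its estimate of the spread. Fitted on the 8 control libraries alone, edgeR called 2383 of 13709 protein-coding genes (17.4%), and the counts of several gene lists were higher too, as given with each list. The call of each gene named below held in all 8 of these fits unless stated otherwise.

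**Figure D1:**
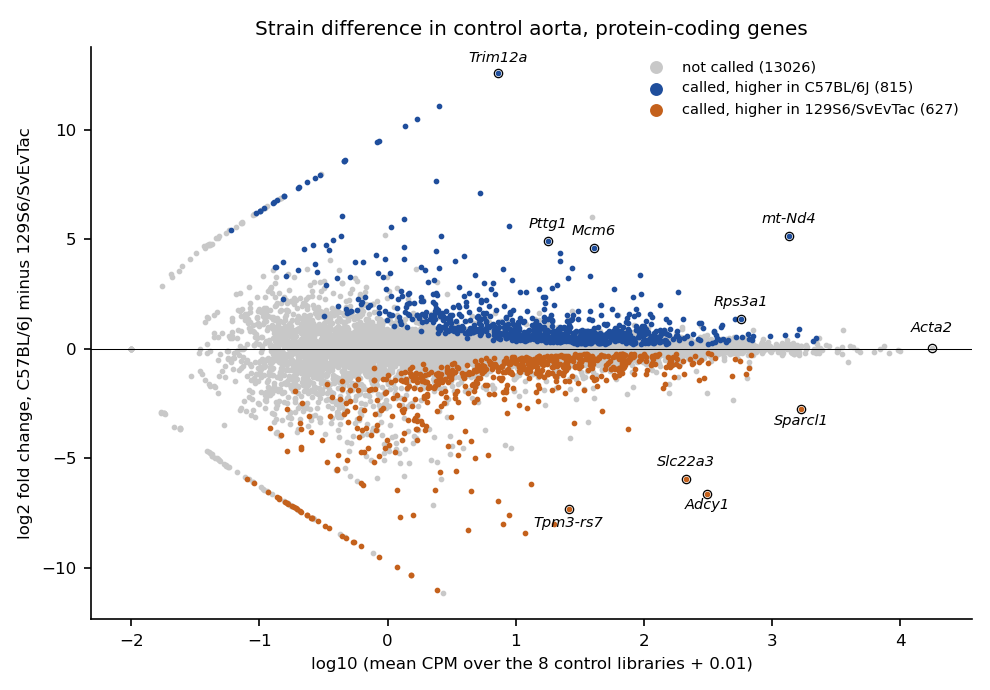
Each point is 1 of the 14468 protein-coding genes, with its mean level over the 8 control libraries on the horizontal axis (log10 of CPM + 0.01) and its log2 fold change between strains on the vertical axis. Blue and orange points are the 815 and 627 called genes, 10 genes are circled, and the straight diagonal rows on the left are genes with no counts in 1 strain, whose fitted fold change depends on the prior count.

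Several abundant genes were far higher in 129S6. Adcy1 encodes an adenylyl cyclase, an enzyme that makes cyclic AMP, and lies on chromosome 11 (7063489 to 7178506). It stood at 6.82, 6.64, 4.87 and 6.43 CPM in the C57BL/6J libraries and at 599, 578, 534 and 758 CPM in the 129S6 libraries, 99.6-fold higher (log2 fold change -6.64 ± 0.28, adjusted p = 2.14e-10). Every 129S6 library was thus far above every C57BL/6J library.

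Slc22a3 encodes an organic cation transporter that takes up monoamines, and lies on chromosome 17 (12418960 to 12507704). Its 4 C57BL/6J libraries held 6.5, 6.3, 9.76 and 4.46 CPM and its 4 129S6 libraries 355, 410.1, 409.9 and 493 CPM, a 61.7-fold difference (-5.95 ± 0.56, adjusted p = 2.79e-06). Sparcl1, a secreted matricellular protein related to osteonectin (chromosome 5, 104079111 to 104113733), was also higher in 129S6. It measured 418, 510.2, 458 and 331 CPM in C57BL/6J against 2747, 2984, 2786 and 3244 CPM in 129S6 (-2.78 ± 0.29, adjusted p = 6.96e-06). In neither gene did the strains overlap.

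Other genes were nearly silent in the C57BL/6J libraries. Gbp2b, an interferon-inducible guanylate-binding protein, reached at most 0.18 CPM in C57BL/6J and 21.6 to 26.3 CPM in 129S6 (-8.40 ± 1.21, adjusted p = 0.000225). Hal, the histidine-degrading enzyme histidine ammonia-lyase, averaged 0.0903 ± 0.123 against 17.8 ± 6.04 CPM (SD, n = 4 each; adjusted p = 1.68e-06). Gdpd3, a lysophospholipase D, averaged 0.295 ± 0.146 against 9.37 ± 1.32 CPM (adjusted p = 1.08e-07). Ifi202b, an interferon-inducible DNA-binding protein of the PYHIN family, had no counts in any C57BL/6J control and 2.53 to 3.48 CPM in 129S6. Against a floor of 3 counts over the C57BL/6J group it was at least 208-fold higher in 129S6 (adjusted p = 1.47e-06).

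Among genes higher in C57BL/6J, some had few or no counts in 129S6. Trim12a, a member of the Trim5 family of antiviral restriction factors (chromosome 7, 104299894 to 104315466), held 16.9, 13.8, 8.84 and 18.3 CPM in C57BL/6J and 0 in all 4 129S6 libraries, at least 915-fold higher against the same floor (adjusted p = 6.88e-07). Hrasls, a phospholipid-modifying acyltransferase, averaged 10.5 ± 1.31 against 0.0757 ± 0.0929 CPM (7.10 ± 0.59, adjusted p = 6.22e-07). Both genes were thus detected at several CPM in one strain and at or near 0 in the other.

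Mcm6 and Pttg1 act in cell division. Mcm6, a subunit of the replicative DNA helicase (chromosome 1, 128331590 to 128359664), measured 80.5, 72.6, 83.6 and 77.4 CPM in C57BL/6J and 3.75, 3.18, 2.55 and 3.35 CPM in 129S6, 24.5-fold higher (4.61 ± 0.18, adjusted p = 6.26e-11). Pttg1, securin, which blocks the separation of sister chromatids until anaphase (chromosome 11, 43420250 to 43426251), measured 33.8, 33.1, 35.7 and 36.7 against 0.904, 1.37, 1.52 and 0.732 CPM (4.93 ± 0.24, adjusted p = 1.22e-09). Of the 30 cell cycle genes tested 3 were called (10%), all higher in C57BL/6J, namely Mcm6, the spindle checkpoint kinase gene Bub1b and the polymerase clamp gene Pcna, whose call held in 7 of 8 omissions. This share is near the 9.97% over all genes. The median over the list was 0.09, and without 129S6 control 2 the count was 2.

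Further genes of this kind have roles in transport, adhesion and matrix. Slc6a17, a vesicular transporter of neutral amino acids, averaged 17.2 ± 3.74 against 0.356 ± 0.0944 CPM (5.59 ± 0.41, adjusted p = 1.6e-07). Igsf9, an immunoglobulin-family adhesion protein of dendrites, averaged 42.5 ± 3.5 against 2.04 ± 0.48 CPM (adjusted p = 2.04e-06). Rab6b, a small GTPase of Golgi transport, averaged 41.5 ± 4.82 against 2.58 ± 0.722 CPM (adjusted p = 6.88e-08). Slc25a34, a mitochondrial carrier, averaged 51.3 ± 7.7 against 4 ± 0.981 CPM (adjusted p = 1.97e-08), and Cilp2, a cartilage matrix protein, 6.34 ± 0.545 against 0.392 ± 0.222 CPM (adjusted p = 7.43e-05). In each of these 5 genes all C57BL/6J libraries lay above all 129S6 libraries.

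**Figure D2:**
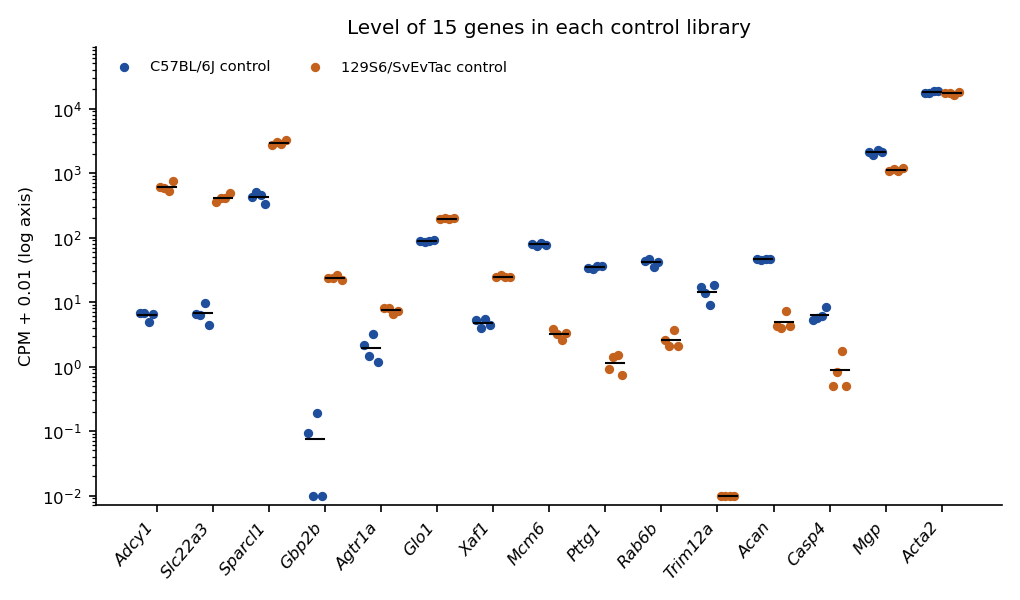
CPM + 0.01 on a log axis for 15 genes in each control library, C57BL/6J in blue and 129S6/SvEvTac in orange, with the group mean as a black line. Acta2 overlaps between the strains, the other 14 genes do not, and Trim12a sits at 0 in all 4 129S6/SvEvTac libraries.

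Called genes of one direction lay next to each other at several places. Along the tested protein-coding genes of each chromosome there were 23 runs of 3 or more neighbours called in the same direction, holding 78 genes, the longest with 6. Of these runs 16 were higher in C57BL/6J and 7 in 129S6. On chromosome 11 (6658521 to 8664535) Ramp3, Adcy1, Igfbp3 and Tns3 were all higher in 129S6. Igfbp3, which binds insulin-like growth factors in the circulation and the matrix, varied between 9.18 and 35.1 CPM among the 129S6 libraries and stood at 2.1 to 3.45 CPM in C57BL/6J (-2.59 ± 0.52, adjusted p = 0.00358). Tns3, a focal adhesion protein, differed little by comparison (84.8 ± 5.41 against 123 ± 9.47 CPM, adjusted p = 0.00279). Chromosome 5 (92441314 to 92606579) held Scarb2, Fam47e and Stbd1, higher in C57BL/6J. Stbd1, which tethers glycogen to membranes, measured 152, 152, 176 and 195 CPM in C57BL/6J and 17.3, 14.1, 15.6 and 18.2 CPM in 129S6 (3.37 ± 0.25, adjusted p = 1.88e-07). Scarb2, a lysosomal membrane protein, averaged 387 ± 21.3 against 173 ± 7.15 CPM (adjusted p = 6.7e-09).

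On chromosome 1 (172475358 to 172507380) the neighbours Slamf9, Igsf9 and Tagln2 were higher in C57BL/6J. Tagln2, an actin-binding relative of transgelin, averaged 546 ± 49.8 against 261 ± 30.0 CPM (adjusted p = 2.02e-05). A run of 6 on chromosome 4 (141576062 to 141723419) from Fblim1 to Rsc1a1 was higher in C57BL/6J, with Fblim1, a filamin-binding adhesion protein, at 1881 ± 119 against 1236 ± 29.6 CPM (adjusted p = 0.00215). Neighbouring genes are not independent. Slc22a3, described above, shares annotated exon positions with Plg, and Rsc1a1 with Ddi2, so their counts are uncertain. For the same reason so are those of Gdpd3 and Ramp3 above, and of Capza1, Psmb5, Rnaset2b, Des, Kcnab1, Mfap4 and Nos3 below. The same holds for Col3a1, Eln, Fbn1, Trim5, Cx3cr1, Glo1 and Myh7 below.

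A share of the called genes has a near-identical copy elsewhere in the genome, where counts can be divided between the partners. A near-identical copy was taken as another gene that matches the longest transcript at 95% identity or more over at least 80% of its length. Of 215 tested genes with such a copy 45 were called (20.9%), against 1397 of 14253 without one (9.80%). With 98% identity over 90% of the length the count was 29 of 113 (25.7%), and with 90% over 50% it was 95 of 613 (15.5%). The median absolute log2 fold change was 2.09 among the called genes with a copy and 0.85 among those without. These shares are given as a description, since copies share sequence and are not independent.

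The coding sequences below, shown because so few bases tell the partners apart, come from GENCODE M21 transcripts on GRCm38. Each pair is given over the 120 coding bases of the parent gene that hold the most differences within the longest ungapped block of the alignment, 5′ to 3′, and capitals mark the bases at which the partners differ. The windows are chr3:90079739-90079858 (plus strand) for Tpm3 and chr14:113314683-113314802 (plus) for Tpm3-rs7. They are chr3:104825085-104828543 (minus, spanning introns) for Capza1 and chr1:105456623-105456742 (plus) for Gm3608, and chr14:54616633-54616752 (minus) for Psmb5 and chr7:3181361-3181480 (plus) for Gm3375.
Tpm3: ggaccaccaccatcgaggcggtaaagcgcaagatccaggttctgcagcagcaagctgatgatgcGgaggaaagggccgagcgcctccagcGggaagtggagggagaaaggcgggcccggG
Tpm3-rs7: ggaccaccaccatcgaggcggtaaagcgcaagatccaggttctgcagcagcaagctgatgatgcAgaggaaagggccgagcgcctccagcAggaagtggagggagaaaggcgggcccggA
Capza1: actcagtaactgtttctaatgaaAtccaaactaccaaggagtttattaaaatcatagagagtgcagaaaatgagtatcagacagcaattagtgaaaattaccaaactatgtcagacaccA
Gm3608: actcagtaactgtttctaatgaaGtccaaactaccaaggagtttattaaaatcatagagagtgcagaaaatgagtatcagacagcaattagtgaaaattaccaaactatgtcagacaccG
Psmb5: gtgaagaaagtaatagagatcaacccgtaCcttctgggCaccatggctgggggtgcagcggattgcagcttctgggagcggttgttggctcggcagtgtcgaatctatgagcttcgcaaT
Gm3375: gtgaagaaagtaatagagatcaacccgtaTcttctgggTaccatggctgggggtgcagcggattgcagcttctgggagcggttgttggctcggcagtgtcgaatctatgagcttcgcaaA
The 3 pairs differ at 3, 2 and 3 of these 120 bases. Over all 744 aligned coding bases Tpm3 and Tpm3-rs7 share 741 (99.6%), Capza1 and Gm3608 share 854 of 857, and Psmb5 and Gm3375 share 784 of 792.

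In each pair the parent gene was lower in 129S6 and the copy was counted at a higher level there. Capza1, the alpha subunit of the actin capping protein, measured 61.1, 56.8, 56.3 and 57.2 CPM in C57BL/6J and 27.3, 31, 27.4 and 32.5 CPM in 129S6 (0.97 ± 0.09, adjusted p = 2.79e-06). Its copy Gm3608, annotated as a pseudogene, went the other way, from 0.677 ± 0.267 to 27.9 ± 1.45 CPM. The sum of Capza1 and Gm3608 was 58.5 ± 2.08 CPM in C57BL/6J and 57.4 ± 2.61 CPM in 129S6, and the libraries overlapped.

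Psmb5, a catalytic subunit of the proteasome, averaged 54.2 ± 5.39 against 28 ± 1.36 CPM (0.95 ± 0.10, adjusted p = 6.94e-06), and its processed pseudogene Gm3375 averaged 0.189 ± 0.109 against 17.4 ± 0.196 CPM. The sum was 54.4 ± 5.48 against 45.4 ± 1.42 CPM, with no overlap. Tpm3-rs7, a copy of the tropomyosin gene Tpm3, was 162-fold higher in 129S6, at 48 to 53.7 CPM against 0.173 to 0.441 CPM (-7.34 ± 0.22, adjusted p = 3.34e-12). Tpm3 itself fell outside the copy rule and was looked up after these values were seen. It averaged 114 CPM in C57BL/6J and 37.8 CPM in 129S6, while the pair summed to 1.28 times as much in C57BL/6J.

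Over the 45 called genes with a copy, the summed level of gene and copy was within 1.5-fold between strains in 25. The gene alone was within 1.5-fold in 4, a count kept low by the choice of called genes. In some pairs the copy is far more abundant and sets the sum. These counts therefore do not show how reads were divided. Some pairs are counted from both sides, and 6 of the copies are annotated as pseudogenes. Rnaset2b, a secreted ribonuclease gene on chromosome 17, stood at 5.06 ± 0.278 CPM in C57BL/6J and 0.144 ± 0.118 in 129S6. Its neighbour Rnaset2a was at 7.88 and 11.3 CPM, so that the pair's sum was 1.13 times as high in C57BL/6J and overlapped. For each gene only the copy matching most of its length was taken, and counts on any other copies were not summed. Rps3a1, a protein of the small ribosomal subunit, is a case in which the copy taken did not make up the difference. It averaged 816 ± 47.3 against 318 ± 11.0 CPM (1.36 ± 0.07, adjusted p = 2.45e-09), and its copy Gm8960 stayed below 1 CPM in both strains. Whether reads of 129S6 were placed on copies because of sequence differences from the reference was not tested.

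**Figure D3:**
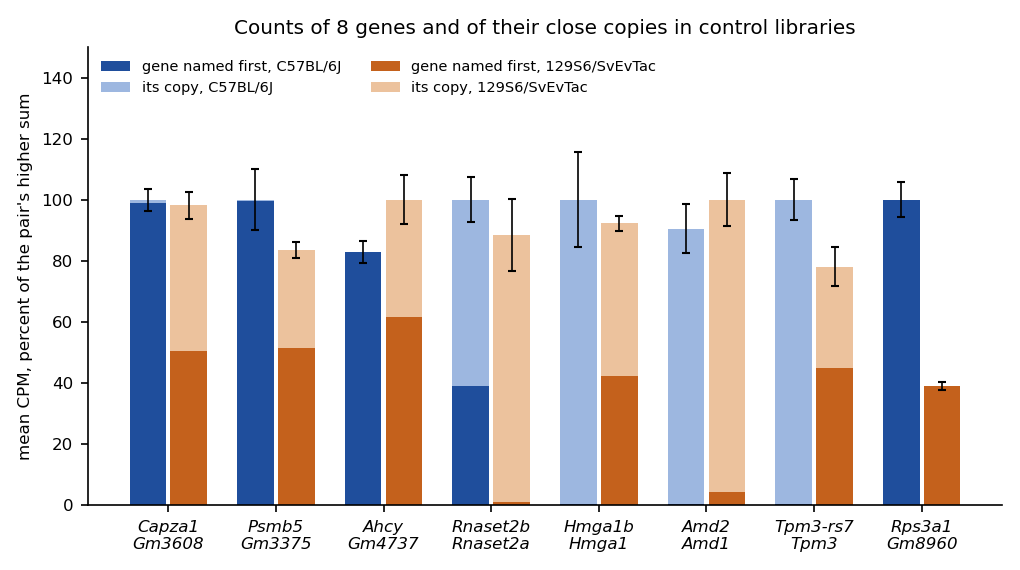
Mean CPM of 8 genes (dark) and of a copy of each (light, stacked) in C57BL/6J and 129S6/SvEvTac controls, as a percentage of the higher of the pair's 2 sums. Error bars are the SD of the sum over 4 libraries. The sums of Capza1 and Gm3608 are level while the share of each partner differs, and Rps3a1 differs with almost no counts on the copy shown.

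Ribosomal protein genes, a class with many pseudogenes, had 9 of 34 members called (26.5%), 7 higher in C57BL/6J, with a list median of 0.06. Rpl29 averaged 101 ± 28.3 against 15.4 ± 2.44 CPM (2.71 ± 0.17, adjusted p = 3.16e-08), and Rplp0, a stalk protein often used as a reference gene, 734 ± 59.8 against 289.7 ± 17.2 CPM (1.34 ± 0.10, adjusted p = 1.68e-07). Their counts are reported as uncertain for the same reason. The count fell to 5 without C57BL/6J control 2 and without 129S6 control 1. In the mitochondrial genome mt-Nd4, a subunit of respiratory complex I, stood at 2988, 2203, 2718 and 2604 CPM in C57BL/6J and at 77.8, 72.4, 85.5 and 61.4 CPM in 129S6 (5.15 ± 0.97, adjusted p = 0.00224). It shares positions with mt-Nd4l in the annotation. In the AngII libraries of 129S6 it took 83.4, 2466, 92.9 and 3908 CPM, so this strain did not keep one level, and mt-Nd4 was the 1 gene called of 30 oxidative phosphorylation genes (3.33%).

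Contractile genes of smooth muscle were called at a share near that over all genes. Of 26 contractile genes 2 were called (7.69%, against 9.97% of all genes), with a median log2 fold change of -0.03. Fitted on the control libraries alone, 7 of the 26 were called (26.9%, against 17.4%). Acta2, smooth muscle actin, averaged 17958 ± 692 CPM in C57BL/6J and 17391 ± 885 CPM in 129S6 (0.05 ± 0.18, adjusted p = 0.924), and Myh11, smooth muscle myosin heavy chain, 9704 ± 498 and 10321 ± 409.7 CPM (-0.09 ± 0.26, adjusted p = 0.896). The 2 called members were Des, the intermediate filament desmin, at 115, 132, 148 and 151 against 228, 244, 216 and 201 CPM (-0.71 ± 0.14, adjusted p = 0.00414), and Cspg4, the pericyte proteoglycan NG2 (0.52 ± 0.13, adjusted p = 0.0201). The call of Cspg4 held in 5 of the 8 omissions, and the list count was 1 without 129S6 control 2, 3 or 4. Among 28 ion channel, calcium and cyclic GMP genes 1 was called (3.57%), the potassium channel subunit Kcnab1, at 219 ± 22.8 against 93.7 ± 9.56 CPM. The control libraries alone gave 5 of 27 (18.5%, against 17.4%).

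Collagens give the wall its tensile strength. Of 24 tested 6 were called (25.0%), 5 higher in C57BL/6J, with a median of 0.23. The main fibrillar chains were not among them: Col1a1 averaged 1926 ± 242 against 1845 ± 556 CPM (adjusted p = 0.925) and Col3a1 differed by 0.50 ± 0.21 on the log2 scale (adjusted p = 0.156). Col18a1, a basement membrane collagen that yields endostatin, averaged 2573 ± 268 against 1853 ± 197 CPM (0.47 ± 0.11, adjusted p = 0.00872). Col16a1, a fibril-associated chain, was the member higher in 129S6, at 46, 46.5, 49.3 and 40 against 94.3, 89.3, 78.4 and 82 CPM (-0.92 ± 0.17, adjusted p = 0.00212). Without 129S6 control 3 the collagen count was 2, and fitted on the control libraries alone it was 11 (45.8%).

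Proteins that decorate the elastic fibre went in both directions. Of 17 elastic fibre genes 3 were called (17.6%), leaving out single libraries gave 3 or 4, and the control libraries alone gave 6 of 16 (37.5%). Mfap4, which binds tropoelastin and fibrillin, measured 414, 344, 399 and 395 CPM in C57BL/6J and 995, 796, 695 and 941 CPM in 129S6 (-1.14 ± 0.17, adjusted p = 0.000351). Efemp1, fibulin 3, was also higher in 129S6 (16.6 ± 2.83 against 32.9 ± 8.74 CPM, adjusted p = 0.00708), and Fbln1, fibulin 1, was higher in C57BL/6J (184 ± 32.9 against 105 ± 13.6 CPM, adjusted p = 0.0102). Elastin itself, Eln, varied from 1437 to 4378 CPM among the 129S6 libraries and from 3458 to 5609 CPM in C57BL/6J (0.86 ± 0.28, adjusted p = 0.0623), which did not pass the test. Fbn1, fibrillin 1, did not pass either (0.26 ± 0.14, adjusted p = 0.278).

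Proteoglycans and matricellular proteins had 5 of 32 members called (15.6%), Sparcl1 among them. Acan, aggrecan, the large proteoglycan of cartilage, measured 46.7, 44.9, 46 and 46.2 CPM in C57BL/6J and 4.3, 3.91, 7.28 and 4.3 CPM in 129S6, 9.29-fold higher (3.21 ± 0.31, adjusted p = 3.27e-06). Mgp, matrix Gla protein, an inhibitor of vascular calcification, measured 2085, 1898, 2277 and 2153 against 1065, 1163, 1059 and 1214 CPM (0.90 ± 0.14, adjusted p = 0.00043). Neither gene overlapped between strains. Matrix proteases and their inhibitors had 6 of 30 called (20.0%), all higher in C57BL/6J, with a median of 0.25. Mmp3, stromelysin 1, averaged 88.2 ± 21.8 against 25.3 ± 6.87 CPM (1.80 ± 0.27, adjusted p = 0.000312), and Plat, tissue plasminogen activator, 104 ± 12.9 against 46.5 ± 5.77 CPM (1.16 ± 0.13, adjusted p = 1.63e-05). Without 129S6 control 3 the count of proteases was 4, and fitted on the control libraries alone it was 12 (40.0%). Of 23 adventitial fibroblast genes 0 were called by edgeR with all libraries in the fit, 0 to 2 with single libraries left out, and 5 (21.7%) with the control libraries alone.

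**Figure D4:**
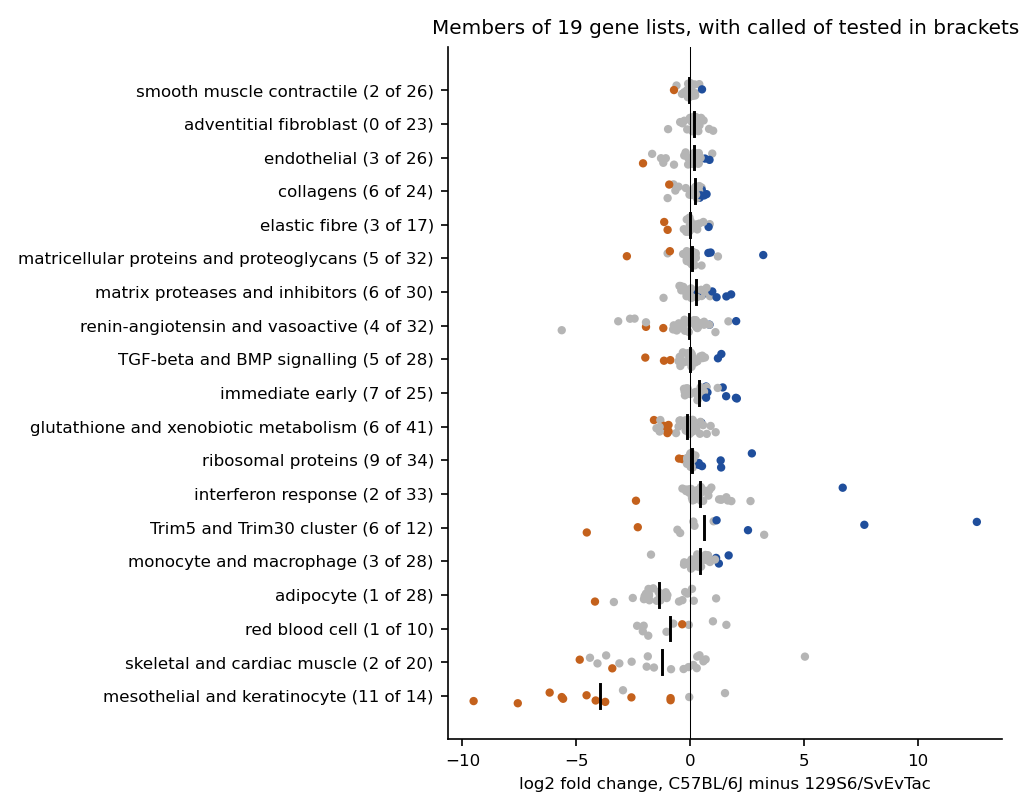
Log2 fold change between strains (horizontal axis, positive when higher in C57BL/6J) for each tested member of 19 gene lists, blue and orange where called, grey where not, with the list median as a black bar. Contractile genes lie close to 0, and mesothelial and keratinocyte genes lie far to the 129S6/SvEvTac side with a median of -3.94.

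The receptor for AngII differed between the strains in the control libraries. Agtr1a, the main type 1 AngII receptor of rodents (chromosome 13, 30336441 to 30382867), measured 2.13, 1.42, 3.13 and 1.17 CPM in C57BL/6J and 8.05, 8.15, 6.63 and 7.36 CPM in 129S6, 3.84-fold higher (-1.94 ± 0.35, adjusted p = 0.00148). Agtr1b, the second rodent type 1 receptor, went the same way (0.952 ± 0.11 against 2.16 ± 0.67 CPM, adjusted p = 0.0172), a call that held in 6 of 8 omissions. In both genes every 129S6 library was above every C57BL/6J library.

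Avpr1a, the vasopressin receptor that constricts vessels, went the other way, at 4.14, 4.38, 3.71 and 2.67 against 0.904, 0.959, 1.29 and 0.51 CPM (2.02 ± 0.36, adjusted p = 0.00156). Nos3, endothelial nitric oxide synthase, averaged 42.5 ± 5.6 against 23.7 ± 7.36 CPM (0.85 ± 0.25, adjusted p = 0.0435), and its call held in 1 of the 8 omissions. These 4 were the called members of 32 renin-angiotensin and vasoactive genes (12.5%, median -0.03), a count that ranged from 2 to 7 with single libraries left out, lowest without C57BL/6J control 3 or 129S6 control 3. Fitted on the control libraries alone, 13 of 29 were called (44.8%).

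Genes of bone morphogenetic protein (BMP) signalling, which restrains smooth muscle and endothelial growth, differed in both directions. Smad6, an intracellular inhibitor, measured 111, 115, 82.2 and 99.3 CPM in C57BL/6J and 46.4, 45.3, 43.8 and 39.4 CPM in 129S6 (1.22 ± 0.14, adjusted p = 3.3e-05). Id2, a transcriptional target of BMP, averaged 215 ± 66.0 against 83.1 ± 22 CPM (1.37 ± 0.21, adjusted p = 0.000321). Nog, the secreted antagonist noggin, was low in both and higher in 129S6, at 0.39 ± 0.157 against 1.53 ± 0.521 CPM (-1.97 ± 0.39, adjusted p = 0.00331). Over the 28 genes of TGF-beta and BMP signalling 5 were called (17.9%), 2 higher in C57BL/6J and 3 higher in 129S6, with a median of 0.00 and 4 to 6 calls when single libraries were left out. The control libraries alone gave 8 (28.6%).

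Innate immune loci are known to differ among inbred strains. The Trim5 and Trim30 cluster of chromosome 7 had 6 of 12 genes called (50%), 4 higher in C57BL/6J. All 6 were called again in the same direction in the AngII libraries. The called member with the lowest log2 fold change (-4.54) has a partner at 98.69% identity over 100% of its length. The pair's sum overlapped between strains, at 4.41 ± 0.459 CPM in C57BL/6J and 3.76 ± 0.291 CPM in 129S6. Whether reads were divided between such partners was not tested. Trim30d averaged 4.75 ± 0.229 against 0.0226 ± 0.0452 CPM (adjusted p = 4.51e-06), with 0 counts in 3 of the 4 129S6 libraries. Trim5 averaged 4.06 ± 0.653 against 0.696 ± 0.106 CPM (2.54 ± 0.20, adjusted p = 3.87e-07). Beside Gbp2b, which was higher in 129S6, Gbp4 was higher in C57BL/6J (12.9 ± 3.24 against 3.29 ± 0.94 CPM, adjusted p = 0.0023). Gbp4 shares positions with Gbp8 and Gbp9 in the annotation, so its counts are uncertain. Slamf9, of the Slam receptor cluster of chromosome 1, measured 13.5 ± 1.83 against 4.48 ± 1.24 CPM (1.59 ± 0.21, adjusted p = 0.000103).

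Casp4 encodes an inflammatory caspase that senses bacterial lipopolysaccharide, and strains related to 129S6 are known to carry a defective copy. It measured 5.16, 5.54, 6.09 and 8.36 CPM in C57BL/6J and 0.497, 0.809, 1.75 and 0.488 CPM in 129S6 (2.82 ± 0.44, adjusted p = 0.000454). Il18, an inflammasome-released cytokine, was higher in 129S6 (0.686 ± 0.154 against 1.93 ± 0.284 CPM, adjusted p = 0.00549), and Il1r1, the interleukin 1 receptor, was higher in C57BL/6J (85.1 ± 4.22 against 57.4 ± 5.03 CPM, adjusted p = 0.00118). The inflammasome list had 4 of 22 called (18.2%), and 5 of 19 (26.3%) with the control libraries alone. Of 33 interferon response genes 2 were called (6.06%), with a median of 0.45, and the control libraries alone gave 9 of 30 (30.0%). Xaf1, an apoptosis factor induced by interferon, measured 5.35, 3.9, 5.45 and 4.38 against 24.3, 26.6, 24 and 24.5 CPM (-2.38 ± 0.22, adjusted p = 2.17e-06), against the direction of that median.

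Monocyte and macrophage markers had a median of 0.43 over 28 genes, with 3 called (10.7%), close to the share over all genes. Their summed level was 777 to 939 CPM in C57BL/6J and 486 to 762 CPM in 129S6, which did not overlap (two-sided exact permutation test, p = 0.0286, the smallest that 4 against 4 libraries allow). Fcgr3, an Fc receptor, averaged 19.4 ± 2.66 against 8.81 ± 2.41 CPM (adjusted p = 0.0139, held in 7 of 8 omissions), and Cx3cr1, the fractalkine receptor, 6.53 ± 2.38 against 2.02 ± 0.547 CPM (adjusted p = 0.0181, held in 5 of 8). The ligand of the latter, Cx3cl1, also ran higher in C57BL/6J (31.6 ± 3.15 against 18.9 ± 1.51 CPM, adjusted p = 0.000571). Without 129S6 control 4 the count of macrophage genes was 0, and fitted on the control libraries alone it was 6 (21.4%). H2-M3, a nonclassical class I antigen-presenting molecule, averaged 7.36 ± 1.15 against 2.9 ± 0.499 CPM (1.34 ± 0.21, adjusted p = 0.000534).

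Enzymes that detoxify reactive metabolites were mostly higher in 129S6 where called. Glo1, glyoxalase 1, which clears methylglyoxal and is known to vary in copy number among inbred strains (chromosome 17, 30584936 to 30626871), measured 89.2, 86, 89.2 and 92.7 CPM in C57BL/6J and 195, 202, 190.4 and 201 CPM in 129S6 (-1.14 ± 0.06, adjusted p = 2.82e-09). Gsr, glutathione reductase, averaged 41 ± 1.1 against 79 ± 1.7 CPM (-0.95 ± 0.07, adjusted p = 1.75e-07). Gstt2, a glutathione transferase, averaged 7.02 ± 1.38 against 14 ± 0.503 CPM (adjusted p = 0.000478). The list had 6 of 41 genes called (14.6%), 5 of them higher in 129S6, and 4 to 9 when single libraries were left out, lowest without C57BL/6J control 1 or 3 or 129S6 control 1 or 4. The control libraries alone gave 14 (34.1%). Nnt, the mitochondrial transhydrogenase that carries a deletion in C57BL/6J, did not separate the strains (-0.08 ± 0.82, adjusted p = 0.975), at 1.76 to 8.69 CPM in C57BL/6J and 1.95 to 13 CPM in 129S6. A second annotated gene of the same name shares its exons, so its reads may have been divided.

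Immediate early genes, which are transcribed within minutes of a stimulus, differed in one direction where called. Of 25 tested 7 were called (28.0%), all higher in C57BL/6J, with a median of 0.39. The mean log2 CPM over the list was 5.20 to 5.68 in C57BL/6J and 4.71 to 4.98 in 129S6 (exact permutation test, two-sided p = 0.0286). Their summed level overlapped, at 2048 to 3154 against 1888 to 2275 CPM (exact p = 0.2). Fos, the founding member, measured 82.6, 88.7, 55.3 and 70 against 24.3, 14.5, 11.1 and 23.8 CPM (2.01 ± 0.43, adjusted p = 0.00602). Arc, an activity-induced gene outside the list, measured 8.76, 8.09, 9.54 and 14.1 against 0.882, 0.828, 1.33 and 2 CPM (3.01 ± 0.55, adjusted p = 0.00184). Without 129S6 control 2 just 1 member of the list was called, while Fos kept its call.

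Markers of cells around the vessel also differed. The list of mesothelial and keratinocyte genes had 11 of 14 members called (78.6%), all higher in 129S6, with a median of -3.94. Of these members 7 are the mesothelial genes summed below, so the 11 calls are not all of mesothelial genes. The whole list summed to 467 to 499 CPM in C57BL/6J and 849 to 978 CPM in 129S6. Most of that came from the other members, which are not described here. Mesothelium is the thin layer that lines the chest cavity and covers the organs in it. Upk3b, a mesothelial uroplakin, measured 0.436, 0, 0.982 and 0 CPM in C57BL/6J and 30.2, 17.7, 47.3 and 9.1 CPM in 129S6 (-6.17 ± 1.06, adjusted p = 0.00107). Wt1, the Wilms tumour transcription factor, had 0 counts in every C57BL/6J control and 0.776 to 2.49 CPM in 129S6, at least 117-fold higher (adjusted p = 0.00176). The summed level of 7 mesothelial genes was 0 to 2.31 CPM in C57BL/6J and 15.7 to 80.9 CPM in 129S6 (exact p = 0.0286).

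Further mesothelial genes showed large differences. Muc16, a mesothelial mucin, averaged 0.0251 ± 0.0501 against 8.42 ± 5.59 CPM (adjusted p = 0.00035). Msln, mesothelin, averaged 0.0954 ± 0.11 against 5.04 ± 3.23 CPM (adjusted p = 0.00876), and Lrrn4 0.133 ± 0.154 against 6.63 ± 3.98 CPM (adjusted p = 0.00249). Their spread within 129S6 was wide, with 129S6 control 4 lowest and 129S6 control 3 highest for Muc16, Lrrn4 and Upk3b. The list count was 9 to 11 when single libraries were left out.

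The other marker lists held few calls with all libraries in the fit. Adipocyte genes had a median of -1.36 with 1 of 28 called (3.57%), and 0 to 3 with single libraries left out. With just the control libraries 5 were called (17.9%, against 17.4% of all genes). That fit called 2 of 19 skeletal and cardiac muscle genes and 1 of 9 red blood cell genes. Adjusting for the adipocyte score gave 6 adipocyte calls, and adjusting for the muscle score gave 0. The adipocyte score is the mean log2 CPM of these same adipocyte genes. Its 6 calls are therefore departures from the list's own mean and do not measure a strain difference of the list. Adipocyte genes summed to 1390.5 to 2357 CPM in C57BL/6J and 1614 to 4295 CPM in 129S6 (exact p = 0.0571). Skeletal and cardiac muscle genes had a median of -1.22 with 2 of 20 called (10%). One was Myh7, the slow and cardiac myosin heavy chain, at 0.4 ± 0.229 against 11.7 ± 4.37 CPM (-4.85 ± 0.77, adjusted p = 0.000546). Red blood cell genes summed to 188 to 902 CPM in C57BL/6J and 1029 to 1926 CPM in 129S6 (exact p = 0.0286), with 1 of 10 called, while their mean log2 CPM overlapped (2.34 to 5.17 against 4.21 to 5.19, exact p = 0.114). Muscle genes summed to 155 to 186 CPM in C57BL/6J and to as much as 482 CPM in 129S6, with overlap. With the muscle score as a covariate 1016 genes were called, and with the adipocyte score 1453. Of the 91 genes named here, 83 kept their direction and side of the threshold with each score, 7 were no longer called with the muscle score and 5 with the adipocyte score. The part of mesothelial and red blood cell RNA in the other differences was not tested.

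The AngII libraries, none of which entered the control contrast, gave a second measurement of the strain difference. Both contrasts used the same estimate of each gene's spread, so their calls are not independent. Of the 1442 control calls 867 were called there in the same direction (60.1%), 72 in the opposite direction, and 503 were not called. Strain differences with AngII were called in 4774 of 14468 genes (33.0%), 2711 higher in C57BL/6J and 2063 higher in 129S6. Of the 13026 genes not called in controls, 2505 were called with AngII in the direction of their control estimate (19.2%). Of the differences of at least 2-fold 424 of 627 were found again (67.6%), and of the smaller ones 443 of 815 (54.4%). Of the 45 called genes with a near-identical copy 33 were found again (73.3%) and 0 were reversed.

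Many of the large differences had about the same size in both settings. Adcy1 differed by -6.76 with AngII and -6.64 without, and Trim5 by 2.49 and 2.54. Tpm3-rs7 was at -6.62, Rps3a1 at 1.45 and Scarb2 at 1.04 with AngII, against -7.34, 1.36 and 1.16 in controls. Agtr1a remained higher in 129S6 (-1.54, adjusted p = 0.0029), as did Gsr (-0.87) and Mfap4 (-1.4). Acan remained higher in C57BL/6J, at 4.38 (adjusted p = 1.36e-07) against 3.21 in controls. None of these 9 genes had a called difference between its control and AngII values, which does not show that the values are equal. Agtr1b was not called with AngII (-0.60, adjusted p = 0.135). Of the called members, 1 of 6 collagens and 1 of 5 TGF-beta and BMP genes were called again in the same direction. Among matrix proteases and inhibitors 5 of 6 were. Col18a1 (-0.31, adjusted p = 0.0401) and Cspg4 (-0.45, adjusted p = 0.0197) were called with AngII in the opposite direction.

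A difference between the strain effect in control and in AngII libraries was itself called in 1628 genes (11.3%), 316 of them among the control calls. The BMP genes Smad6 and Id2 changed sign: Smad6 was lower in C57BL/6J with AngII (-0.91, adjusted p = 0.000228), and so was Id2 (-0.67, adjusted p = 0.0196), with adjusted p = 0.000116 and 0.00117 for the difference from controls. Wt1 was not called with AngII (-0.97, adjusted p = 0.441), nor was mt-Nd4 (0.61, adjusted p = 0.625). Wt1 does not stand for the mesothelial and keratinocyte list, of which 7 of 14 genes were called with AngII, against 33.0% of all genes. Of its members, 6 were called in both settings in the same direction. The summed level of 7 mesothelial genes with AngII was 1.06 to 10.4 CPM in C57BL/6J and 10.9 to 36.6 CPM in 129S6. Pttg1 and Mcm6 kept their direction at smaller size (3.01 and 3.30, against 4.93 and 4.61). Acta2 and Myh11, not called in controls, were lower in C57BL/6J with AngII, by -0.97 and -1.44. Smooth muscle contractile genes summed to 24339.8 to 54639.6 CPM in the C57BL/6J AngII libraries and to 66174 to 83426 CPM in those of 129S6.

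**Figure D5:**
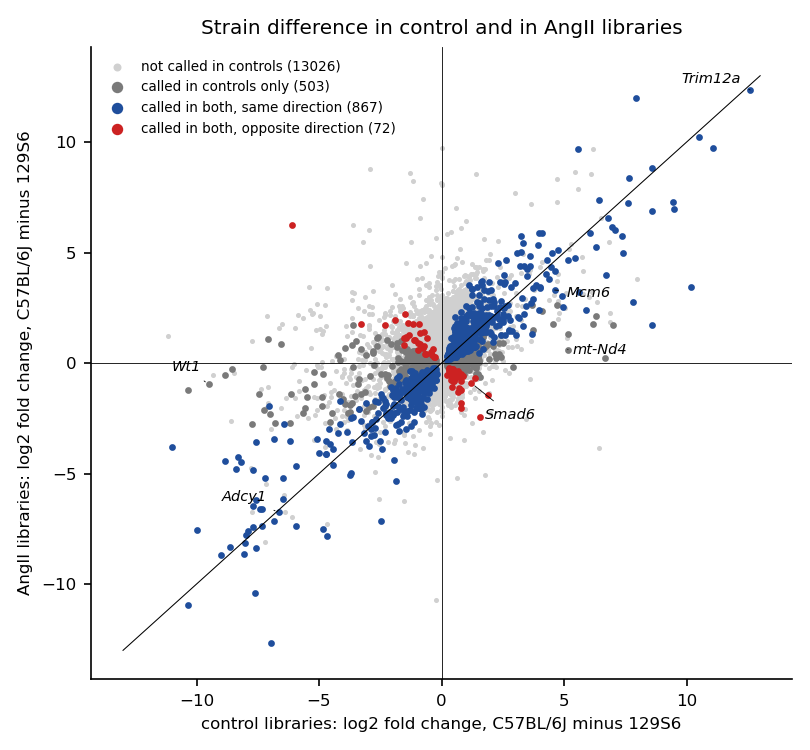
Strain difference (log2 fold change, C57BL/6J minus 129S6/SvEvTac) of each protein-coding gene in control libraries (horizontal axis) and in AngII libraries (vertical axis), with equality as a diagonal line. Blue points are the 867 genes called in both with the same direction, red the 72 with opposite directions, and dark grey the 503 called in controls but not with AngII; pale grey genes were not called in controls.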

How the data were processed

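RNA-seq libraries of descending thoracic aorta were analysed, 4 per group. The authors deposited 1 table of expected counts per gene, made with HISAT2 and StringTie against GRCm38/mm10 and Gencode, per the labels' protocols; the values are whole numbers. How StringTie output became counts and whether counting used strand is not given by these sources. DESeq2 1.26.0 and R 3.6.2 appear in the submitters' processing notes with no stated role.

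Here the expected counts were fitted with edgeR 4.0.16 (R 4.3.3) by the quasi-likelihood test, with TMM normalisation, filterByExpr at a minimum count of 10 and robust dispersion. All 16 libraries entered the fit with 1 mean per group, and p-values were Benjamini-Hochberg adjusted over 17125 genes. Of 52636 rows 52489 matched GENCODE M21, the source of gene types, positions and sequences. Copies were found with BLAST+ 2.17.0 megablast, and overlapping annotations were not counted as copies. Control depth was 42116120 to 57966276 counts, and no 2 libraries were identical.

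The fit was tested on simulated data for the control comparison over 16729 genes: 22 of 63 genes changed 1.5-fold, 36 of 75 changed 2-fold and 47 of 61 changed 4-fold were called, with 3 of 16530 unchanged genes. Members, gene lists and tests were chosen with earlier results of these data known. Named genes were the 12 largest differences per direction with at least 5 CPM and no overlap, the 8 most abundant called genes, up to 3 called genes per list, up to 8 with copies, the 8 largest per direction found again with AngII, a fixed panel, and members of runs. Tpm3 and Rnaset2a, partners of named genes, and genes given as overlapping annotations fall outside that rule. Alternatives were DESeq2 1.42.0, limma 3.58.1 voom, other scalings and filters, marker scores as covariates, a replicate block and leaving out each library. Results for some genes are not reported here.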

Additional observations from a re-analysis of the deposited data

Results flagged for a closer look

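Single libraries stood apart from the other 3 of their group in some genes, by Dixon's criterion, which chance meets in about 1 in 20 groups. In C57BL/6J control 2, Col18a1 was at 2174, Col1a1 at 1567 and Col3a1 at 2289.6 CPM, each the lowest of its group. In C57BL/6J control 3, Muc16 was at 0.1, Gbp4 at 8.06 and Cx3cr1 at 10.1 CPM. In C57BL/6J control 5, Hrasls was at 8.55, Nog at 0.623, Nos3 at 50.9 and Rpl29 at 143 CPM. Among 129S6 controls, Trim30d was at 0.0904 CPM in library 1, Acan at 7.28 CPM in library 3 and Tpm3 at 30.6 CPM in library 4. In 129S6 control 2, Bub1b was at 0.15, Tagln2 at 306 and Nnt at 13 CPM. Muc16, Trim30d and Bub1b had no counts in the other libraries of those groups. There any count meets the criterion, so the rate of 1 in 20 does not hold for these genes.

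For other genes the strain difference with AngII differed from that in controls in edgeR's interaction test. The change in log2 fold change, AngII minus control, was negative in Acta2 (-1.01), Myh11 (-1.35), Des (-1.29), Cspg4 (-0.97), Bub1b (-3.51), Mcm6 (-1.31) and Pttg1 (-1.92). It was also negative in Smad6 (-2.13), Id2 (-2.05), Slc25a34 (-2.36), Slc6a17 (-2.36), Stbd1 (-1.15), Fblim1 (-0.69), Col18a1 (-0.78), Glo1 (-0.30) and mt-Nd4 (-4.54). It was positive in Wt1 (8.54), Ramp3 (4.50), Igfbp3 (3.76), Fcgr3 (1.35), Col16a1 (1.3), Tpm3 (0.68) and Il1r1 (0.57).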

How the results depend on the processing

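The 1442 calls became 2665 with limma voom (1449 higher in C57BL/6J, 1216 in 129S6) and 2383 when just the 8 control libraries were fitted (1244 and 1139); the cause was not tested. Leaving out 1 of the 16 libraries gave 1061 to 1742 calls (1061 to 1161 where it was a control), 587 to 932 higher in C57BL/6J and 448 to 810 higher in 129S6, with 688 to 945 found again with AngII (54.2 to 66.9%). DESeq2 called 2076. With a replicate block 1118 genes were called (624 and 494), but the numbers did not pair the samples: deviations of same-numbered controls correlated at 0.03, -0.04 and 0.00. Of 2454 values for 91 named genes under alternatives, 2401 kept direction and side of the threshold, 40 were no longer called, 6 became called and 7 changed sign. Those 7 were in genes not called: Acta2 at -0.19 and -0.15 with the adipocyte and muscle scores, Col1a1 at -0.07 without 129S6 control 3 (range over omissions -0.07 to 0.27), and Nnt at 0.72 with the replicate block, 1.13 without 129S6 control 2, and 0.18 and 0.19 without C57BL/6J control 2 or 3 (range -0.59 to 1.13). At the depth of these libraries, genes listed at 0 are bounded only by the floor of 3 counts.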
